A study of Mus musculus with 16 samples.

Results

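The genes described are 36 genes of mitosis, read in the cerebral cortex of adult mice after whole-body irradiation. They were chosen by name as components of the machinery of cell division, and all 36 of the 36 had at least 1 probe among the 22911 genes that the array's RefSeq accessions named. The study crossed genotype with irradiation. Wild-type mice were male littermates of male Neil1-/- mice backcrossed on C57BL/6, and the labels give an age of 28 to 42 weeks. Neil1 encodes a DNA glycosylase, which removes oxidised bases from DNA. Irradiated mice of either genotype received 6 Gy of gamma rays at 0.74 Gy/min, sham mice were handled without radiation, and cortex was taken 20 h later from 4 mice in each of the 4 groups. The treatment protocol also gives BrdU, a thymidine analogue that dividing cells build into DNA, at 100 mg/kg before and 2 h after the exposure, and it sets no group apart in this. The whole cortex was read, so each value averages over every cell of the tissue.

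A cell that divides first copies its DNA and then enters mitosis when cyclin B binds the kinase Cdk1. Chromosomes condense, kinetochores form on the centromeres and catch spindle microtubules, the spindle checkpoint holds the anaphase-promoting complex until all are attached, and the midzone between the separated chromosomes guides cytokinesis. Many of these genes are transcribed only from late S phase to mitosis. Neurons do not divide, and in adult cortex the cycling cells are mainly oligodendrocyte precursors. Ionising radiation is known to stop cycling cells at the G1 and G2 checkpoints.

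Each array was read in 1 colour. Values below are levels on the log2 scale, as the processed signal of a probe relative to the 75th percentile of its array, so that lower numbers mean dimmer probes. The 75th percentile itself lay between 1075 and 2725 intensity units, with the lowest 4 values on arrays of the labelled knockout, and irradiated labelled knockout replicates 3 and 4 were the dimmest. A probe was called above background by the scanner's own flag. All wild-type arrays lay on one slide and all labelled knockout arrays on the other, so genotype and slide cannot be told apart; sham arrays filled one row of each slide and irradiated arrays the other, so irradiation and slide row cannot be told apart either. The probe of the targeted gene went against the label: Neil1 read -3.65 ± 0.28 in sham wild type and -2.38 ± 0.19 in sham labelled knockout (SD, n = 4 each), a difference of 1.27 ± 0.19 (SE, limma adjusted p = 0.0246), and -3.75 ± 0.40 against -2.36 ± 0.23 after irradiation. The sources do not say whether this probe lies in the deleted part of the gene, and the group is called labelled knockout throughout. Of 12 cortical neuron markers 11 had a probe, and none of these was below background on all 16 arrays.

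Irradiation, averaged over genotypes, gave the clearest result. Of the 33 mitosis genes that could be tested, 8 fell and 1 rose (limma, adjusted p under 0.05 over 17436 genes), against 0.138% of all tested genes that fell and 0.166% that rose. The genes that fell were Pbk, a mitotic kinase; Cenpf, a protein of the outer kinetochore; Ccnb1, the cyclin that drives entry into mitosis; Nusap1, which bundles spindle microtubules; Pimreg, a mitotic regulator; Prc1, which crosslinks microtubules of the midzone; Cdca3, a trigger of mitotic entry; and Ube2c, the E2 enzyme that works with the anaphase-promoting complex. Spc25, a subunit of the Ndc80 complex that joins kinetochores to microtubules, was the one that rose. Ccnb1, Pbk and Pimreg were above background on sham arrays alone, so they entered the test through the group where they were high. Cenpf was above background on 3 irradiated wild-type and 0 irradiated labelled knockout arrays, and Nusap1 and Ube2c on 1 in each genotype. The filter asked for 4 of 16 arrays, so these genes also entered the test only with their sham arrays. With no filter on dim probes, 6 members fell and 1 rose, among 42 called of 22911 genes, 38.1% of them lower. Cdca3 and Ube2c no longer passed. In bulk tissue, fewer dividing cells and less of these RNAs in each cell cannot be told apart. The other 24 tested members did not pass, and Cdk1, Bub1 and Esco2 were below background on all 16 arrays and were not tested.

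Directions were counted over all 36 members, tested or not, by the brightest probe of each. The change averaged over genotypes was below 0 in 34 of 36, against 41.7% of all named genes, with a median of -0.29 beside 0.03 over all genes. The size differed by mean level. The 19 members below -5 had a median of -0.83, against 0.19 over all genes at that level (29.8% below 0). The 6 members from -5 to -3 had a median of -0.51 (all genes 0.01, 46.9%). The 11 members above -3 had a median of -0.08, with 9 below 0 (all genes 0.0045, 48%), and the only call among them was the rise of Spc25. Both genotypes separately were lower in 27 of 36 (background 21.2%) and higher in both in Racgap1 and Spc25 (background 36.2%). In the separate contrasts the count below 0 was 31 of 36 in wild type (all genes 44%), with a median of -0.47. In the labelled knockout it was 30 of 36 (all genes 41%), with a median of -0.30. After a background correction that adds an offset of 50 to every spot (normexp), the counts were 30 of 36 in wild type and 16 of 36 in the labelled knockout, where the other 20 were above 0. The share of all genes below 0 was not counted under that correction. It moved the median of all tested genes from 0.0138 to 0.0191 in wild type and from -0.001 to 0.0396 in the labelled knockout. The members' medians without that correction were -0.35 and -0.22 with 6 members set at their bound and 3 left out. The 6 were below background in 1 of the groups, and the 3 in both. No test was made on the list, because its members were chosen with results of these data known.

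**Figure D1:**
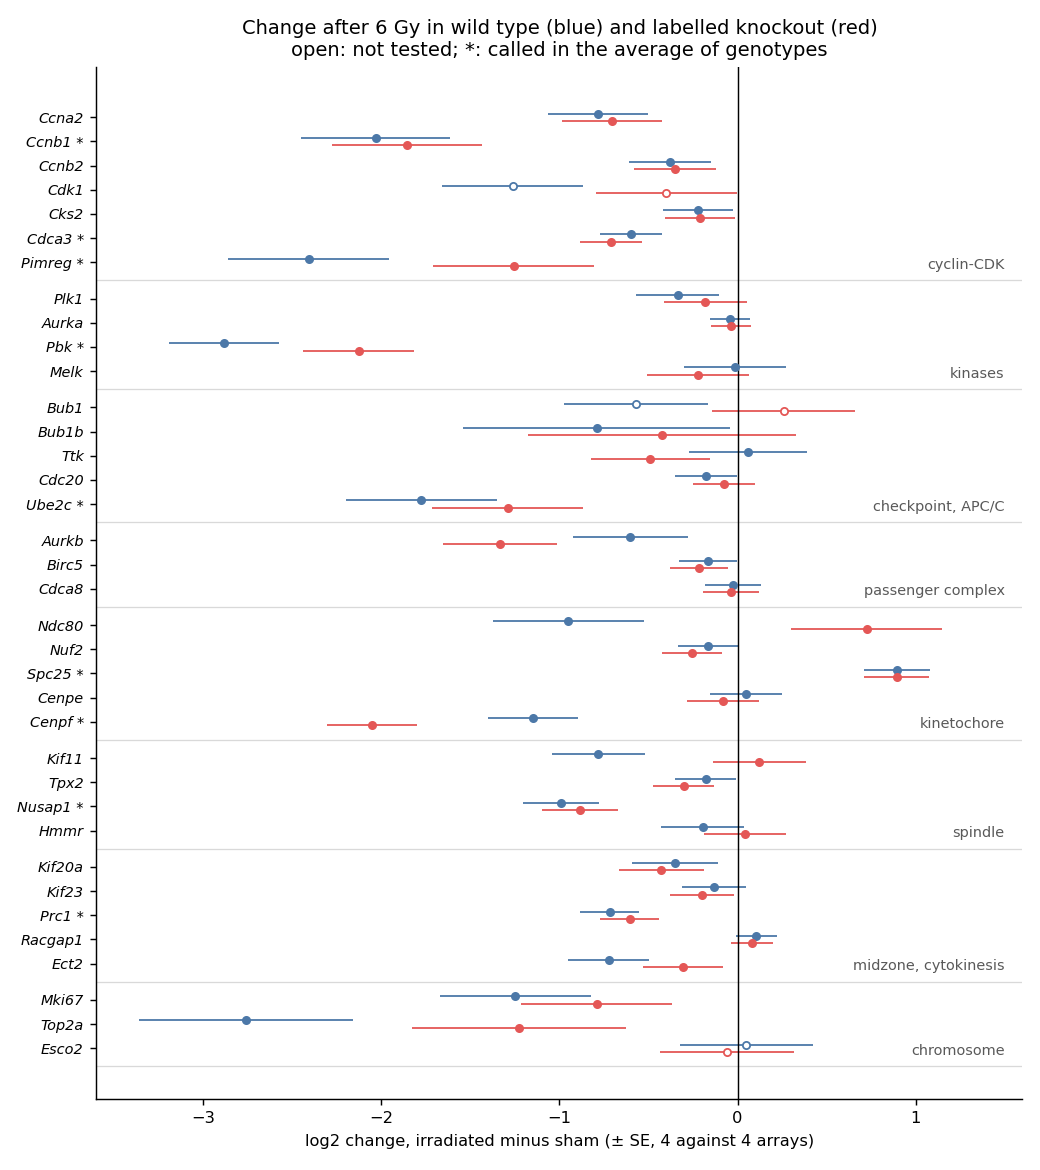
Log2 change after 6 Gy, irradiated minus sham, for each of the 36 members in wild type (blue) and labelled knockout (red), grouped by role, with the SE of the fit (4 against 4 arrays); open points mark genes not tested and an asterisk marks the 9 members called in the average of genotypes. Most points lie left of 0, and Spc25 lies to the right in both genotypes.

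The group of cyclins, Cdk1 and the genes listed with them held 3 of the 8 that fell. All 7 of this group had fitted changes below 0 in both genotypes (21.2% of all named genes), with a median of -0.74 in the average (all named genes 0.03). Cdk1, below background on every array, is counted among them. The 6 that were tested had a median of -0.70 (all tested genes 0.0043). Ccnb1 read -5.99, -6.43, -5.20 and -5.28 on the sham wild-type arrays and -7.49, -7.42, -7.52 and -8.59 on the irradiated ones. In the labelled knockout it read -5.13, -5.75, -5.42 and -6.00 in sham and -7.58, -7.94, -6.09 and -8.13 after irradiation. The groups did not overlap in either genotype, and the probe was above background on every sham array and on 0 of 8 irradiated arrays. Its signal was therefore at least 2.27-fold lower in irradiated wild type and at least 1.63-fold lower in irradiated labelled knockout, a bound set by the dimmest probes above background on each array, and the fitted average was -1.94 ± 0.30 (SE, limma adjusted p = 0.00657). Its 2 other probes were below background on all 16 arrays.

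Pimreg read -5.80, -5.68, -5.54 and -4.99 on sham wild-type arrays against -6.89, -8.97, -7.15 and -8.65 after irradiation. The labelled knockout values were -5.25, -5.36, -6.52 and -6.30 in sham and -7.62, -6.49, -6.84 and -7.51 after irradiation, so the wild-type groups were apart while irradiated replicate 2 of the labelled knockout lay just above the lowest sham array. Its probe was above background on 4 sham wild-type and 2 sham labelled knockout arrays and on no irradiated array. Its signal was at least 2.64-fold lower in wild type and, by the same reckoning, 1.37-fold lower in the labelled knockout. The latter averages all sham arrays, with those below background, so it is not a strict bound. The average change was -1.83 ± 0.32 (SE, limma adjusted p = 0.0227). Cdca3 was above background on all 16 arrays. It read -4.49, -4.33, -4.02 and -3.78 in sham wild type, -4.92, -4.87, -4.85 and -4.36 in irradiated wild type, -4.10, -3.90, -4.25 and -4.21 in sham labelled knockout and -5.0, -4.91, -4.93 and -4.47 in irradiated labelled knockout. Its groups stood apart in the labelled knockout, replicate 4 of irradiated wild type lying inside the sham range, and the average change was -0.65 ± 0.12 (limma adjusted p = 0.0407).

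Ccna2, the cyclin of S phase and G2, did not pass. It had a sham mean of -3.67 ± 0.24 and an irradiated mean of -4.46 ± 0.25 in wild type (SD, n = 4), where the groups did not overlap, and -3.86 ± 0.42 against -4.56 ± 0.65 in the labelled knockout, where they did; the average was -0.74 ± 0.20 (limma adjusted p = 0.291). Its second, dimmer probe gave a probe-level average of -0.91. Ccnb2, a second mitotic cyclin, had a fitted change of -0.37 ± 0.16 and Cks2, a small partner of Cdk1, by -0.22 ± 0.14. Cdk1 itself was below background on every array, and no level or fold is given for it.

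Among the mitotic kinases outside the Cdk family, Pbk was the 1 member that passed. It read -6.58, -6.59, -5.99 and -5.55 in sham wild type and -8.88, -9.34, -8.98 and -9.04 after irradiation, and -5.47, -6.02, -6.77 and -6.29 in sham labelled knockout and -8.83, -7.52, -8.42 and -8.29 after irradiation. The probe was above background on 4 and 3 sham arrays and on no irradiated array. Its signal was at least 1.66-fold lower in wild type and, by the same reckoning, 1.12-fold lower in the labelled knockout. The latter takes in a sham array below background, so it is not a strict bound. The fitted average was -2.51 ± 0.22 (limma adjusted p = 2.91e-05). Pbk was also the 1 member called in wild type alone (adjusted p = 0.00054, where 0.0115% of all genes fell) and 1 of 2 in the labelled knockout alone (adjusted p = 0.0108, where 0.0459% fell), Cenpf being the other (adjusted p = 0.00203). Plk1, Aurka and Melk, which act at centrosomes and in early mitosis, had a fitted change of -0.26 ± 0.17, -0.04 ± 0.08 and -0.12 ± 0.20. Aurka was above background on every array, and its 4 groups had means between -1.84 and -1.75.

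Genes of the checkpoint and the anaphase-promoting complex were mixed. Ube2c read -5.58, -6.00, -5.64 and -4.98 in sham wild type and -7.06, -6.84, -7.26 and -8.14 after irradiation, a gap without overlap. Labelled knockout mice gave -4.59, -5.33, -6.47 and -5.43 in sham and -6.93, -6.28, -6.05 and -7.73 after irradiation, where sham replicate 3 lay below irradiated replicates 2 and 3. The average was -1.53 ± 0.30 (limma adjusted p = 0.0477), with 1 of 4 irradiated arrays above background in each genotype. Cdc20, the activator of the complex, had a fitted change of -0.13 ± 0.12, and Ttk and Bub1b, kinases of the checkpoint, by -0.22 ± 0.23 and -0.61 ± 0.53. Bub1b ranged from -8.27 to -4.16 over the irradiated labelled knockout arrays.

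The chromosomal passenger complex corrects faulty attachments, and 3 of its subunits are among the 36, none of which passed. Aurkb, its kinase, had a fitted change of -0.97 ± 0.23 (limma adjusted p = 0.157). Of the 16 fits that left out 1 array, it passed only without irradiated labelled knockout replicate 1 (limma adjusted p = 0.0177). Its probe was above background on 3 and 2 sham arrays and on no irradiated array. In the labelled knockout the groups did not overlap, at -6.67 to -5.97 in sham against -8.27 to -6.69 after irradiation. Birc5 and Cdca8, which target the complex to centromeres, had a fitted change of -0.19 ± 0.11 and -0.03 ± 0.11. Their second, dimmer probes had the opposite sign, at 0.06 for Birc5 and 0.15 for Cdca8. Of 11 members with several probes that passed the filter, these 2 differed in sign between probes and 9 did not.

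The kinetochore genes held both a fall and the rise. Cenpf read -5.31, -5.64, -5.36 and -4.82 in sham wild type and -6.70, -6.43, -6.12 and -6.47 after irradiation. The labelled knockout arrays gave -4.83, -4.93, -5.66 and -5.40 in sham and -7.04, -7.02, -6.99 and -8.00 after irradiation, with 0 of 4 arrays above background, at least 2.14-fold lower than in sham. Neither genotype overlapped, and the average was -1.60 ± 0.18 (limma adjusted p = 0.000391). A second, dimmer Cenpf probe gave a probe-level average of -0.64.

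Spc25 read -2.84, -2.94, -3.11 and -2.76 in sham wild type and -2.31, -1.98, -1.93 and -1.83 after irradiation. Its labelled knockout values were -3.18, -2.34, -2.97 and -3.43 in sham and -2.05, -2.09, -2.19 and -2.02 after irradiation. All 4 irradiated arrays lay above all 4 sham arrays in both genotypes, as for 0.746% of all genes in wild type and 1.99% in the labelled knockout, and the average was 0.90 ± 0.13 (limma adjusted p = 0.0047). The 2 Spc25 probes are listed under different RefSeq transcripts. The second, dimmer one had a change of 0.83 at the probe level (adjusted p = 0.374) and averaged -5.60 in sham and -4.94 in irradiated wild type and -6.04 and -5.04 in the labelled knockout. Of the other subunits of the Ndc80 complex, Nuf2 and Ndc80 are among the 36 and neither passed: Nuf2 had a fitted change of -0.21 ± 0.12 and Ndc80 of -0.11 ± 0.30. Ndc80 had opposite signs in the genotypes, -0.95 in wild type and 0.73 in the labelled knockout, with its probe above background on 3, 0, 1 and 2 arrays of the 4 groups. Cenpe, the kinetochore motor that carries chromosomes to the plate, had a fitted change of -0.02 ± 0.14.

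Among the spindle genes, Nusap1 read -5.95, -6.27, -6.03 and -5.53 in sham wild type and -6.96, -7.35, -6.60 and -6.84 after irradiation. Labelled knockout arrays gave -5.56, -5.98, -5.75 and -5.41 in sham and -6.20, -6.28, -6.99 and -6.78 after irradiation. The groups were apart in both genotypes, and the average was -0.94 ± 0.15 (limma adjusted p = 0.00982), with 1 of 4 irradiated arrays above background in each. Kif11, the motor that pushes the spindle poles apart, had a fitted change of -0.33 ± 0.18, Tpx2, which nucleates spindle microtubules, by -0.24 ± 0.12, and Hmmr, a spindle pole protein, by -0.08 ± 0.16.

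In the midzone group, Prc1 was the member that fell. It read -3.84, -3.88, -3.87 and -3.50 in sham wild type and -4.47, -4.59, -4.67 and -4.24 after irradiation. The labelled knockout values were -3.86, -3.37, -3.81 and -4.22 in sham and -4.41, -4.44, -4.20 and -4.63 after irradiation, where irradiated replicate 3 lay just above sham replicate 4. All 16 arrays were above background and the average was -0.66 ± 0.12 (limma adjusted p = 0.0234); a second probe gave -0.89. Ect2, the exchange factor that starts the cleavage furrow, had a fitted change of -0.51 ± 0.16 (adjusted p = 0.508). The kinesins Kif20a and Kif23 had a fitted change of -0.39 ± 0.17 and -0.16 ± 0.13. Racgap1, the partner of Kif23 at the midzone, had a fitted change of 0.09 ± 0.08.

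Mki67, the protein that coats mitotic chromosomes and is widely used as a mark of cycling cells, and Top2a, the topoisomerase that untangles them, fell short of the threshold. Mki67 read -4.59, -5.19, -4.41 and -4.13 in sham wild type and -6.00, -5.92, -5.69 and -5.70 after irradiation, and -4.06, -4.84, -5.30 and -4.62 in sham labelled knockout and -5.60, -3.92, -6.11 and -6.34 after irradiation. The wild-type groups did not overlap, whereas irradiated labelled knockout replicate 2 was the brightest of all 16 arrays for this gene. The average was -1.02 ± 0.30 (limma adjusted p = 0.451). Of the 16 fits that left out 1 array, Mki67 passed only in the fit without that replicate (limma adjusted p = 0.0117). Top2a read -5.20, -5.93, -5.15 and -4.44 in sham wild type and -8.39, -7.20, -9.04 and -7.13 after irradiation, at least 3.31-fold lower, since no irradiated wild-type array was above background. In the labelled knockout it read -4.45, -5.19, -6.41 and -5.86 in sham and -5.38, -6.50, -6.60 and -8.33 after irradiation, which overlap. Its average was -1.99 ± 0.43 (limma adjusted p = 0.0873). Of the same 16 fits, Top2a passed only in the fit without irradiated labelled knockout replicate 1 (limma adjusted p = 0.0418).

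**Figure D2:**
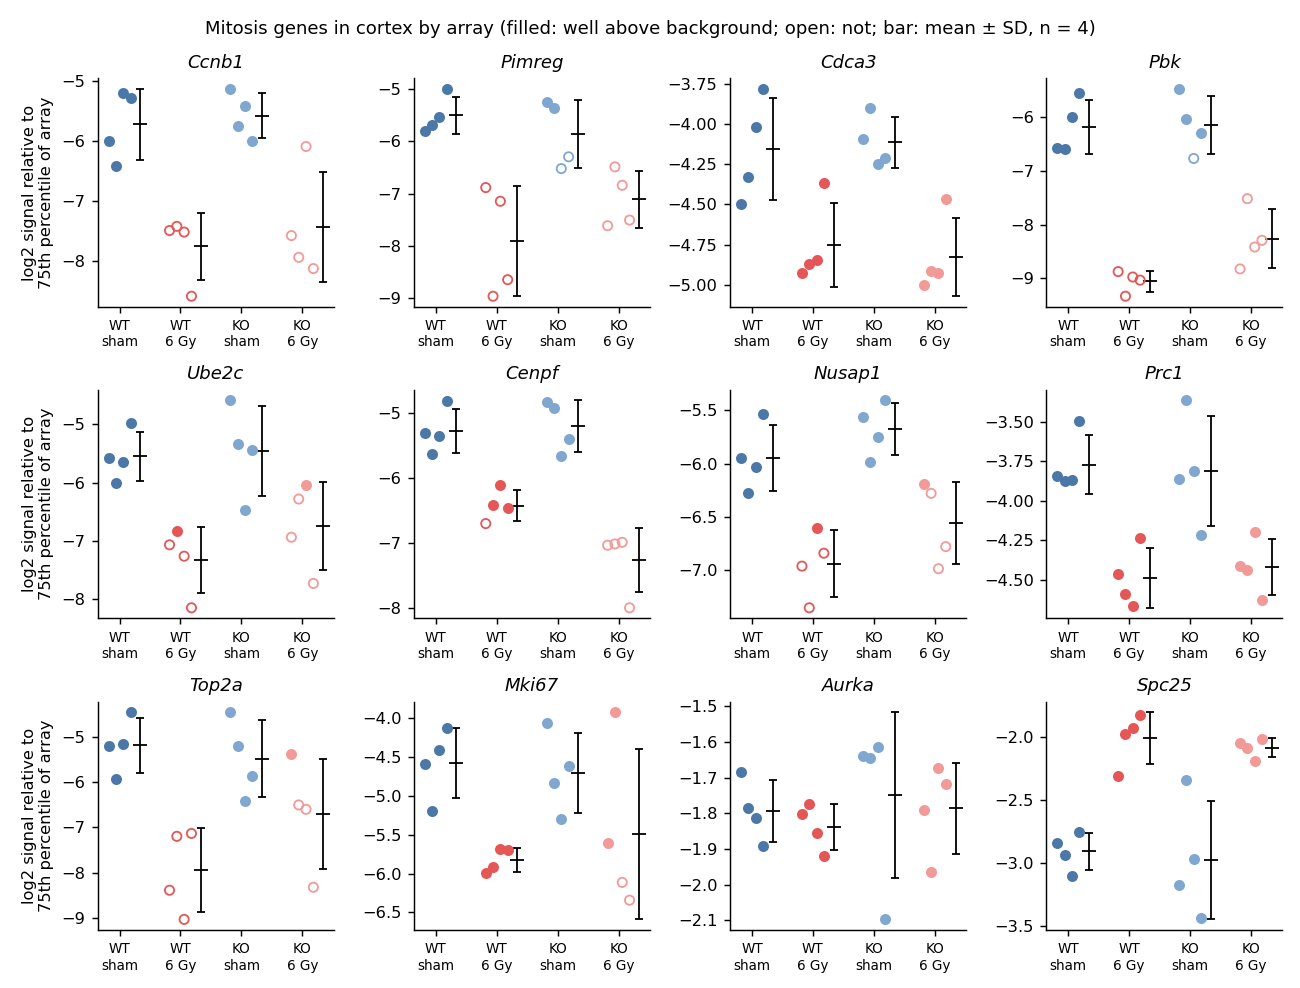
Levels on each array of 12 members in the 4 groups, as the log2 signal relative to the 75th percentile of the array; filled points are well above background, open points are not, and the bar is the mean ± SD of 4 arrays. The irradiated points of Ccnb1, Pbk and Pimreg are all open, Aurka shows no shift, and Spc25 is the panel where the irradiated points lie higher.

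The calls differ in how often they were kept. Ccnb1, Cenpf, Nusap1, Pbk and Spc25 were called in the average in each of the 16 fits that left out 1 array (limma, highest adjusted p = 0.0319, for Nusap1). Ube2c was lost in 14 of the 16 fits, kept without sham labelled knockout replicate 3 or irradiated labelled knockout replicate 3, and Cdca3 in 13, kept without sham wild-type replicate 1, irradiated wild-type replicate 4 or irradiated labelled knockout replicate 4. Prc1 was lost in 8 and Pimreg in 7, with adjusted p up to 0.0701. Quantile normalization lost Ccnb1, Cdca3, Prc1 and Ube2c, and the deposited scores lost Cdca3, Prc1 and Ube2c, with Pbk not tested there. Pbk in the labelled knockout alone was lost without sham labelled knockout replicate 2 (adjusted p = 0.054). A background correction that adds an offset of 50 to every spot left Spc25 as the 1 called member, with Ccnb1 at -0.29 and Pbk at -0.29; with an offset of 1, Ccnb1, Cenpf and Spc25 were called. Without the 2 dimmest arrays, Ccnb1, Cenpf, Pbk and Spc25 were called. Both of the last alternatives were chosen after seeing the data.

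Fewer members were seen above background after irradiation. On the sham wild-type arrays 33, 30, 33 and 33 of 36 were above background, and on the irradiated ones 22, 25, 25 and 24. In the labelled knockout 32, 33, 29 and 28 were seen in sham and 25, 23, 21 and 21 after irradiation. Irradiated groups did not overlap sham groups in either genotype, and the group means were 32.25 ± 1.5, 24 ± 1.41, 30.5 ± 2.38 and 22.5 ± 1.91 (SD, n = 4). Over all named genes the mean share above background was 75.9%, 73.9%, 73.5% and 72.2% in the same order, and the lowest signal above background rose from between -7.44 and -6.87 to between -7.15 and -6.64 in wild type and from between -7.03 and -6.40 to between -6.59 and -6.09 in the labelled knockout; the part of this rise in the count was not tested. Above background on fewer irradiated than sham arrays were 12 members in wild type (background 7.16%) and 14 in the labelled knockout (background 5.85%), against 0 (background 1.7%) and 1 (background 2.33%) on more. Ccnb1, Pbk, Pimreg and Top2a went from 4 of 4 to 0 of 4 in wild type (background 0.0655%), and Ccnb1 and Cenpf did so in the labelled knockout (background 0.0306%).

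**Figure D3:**
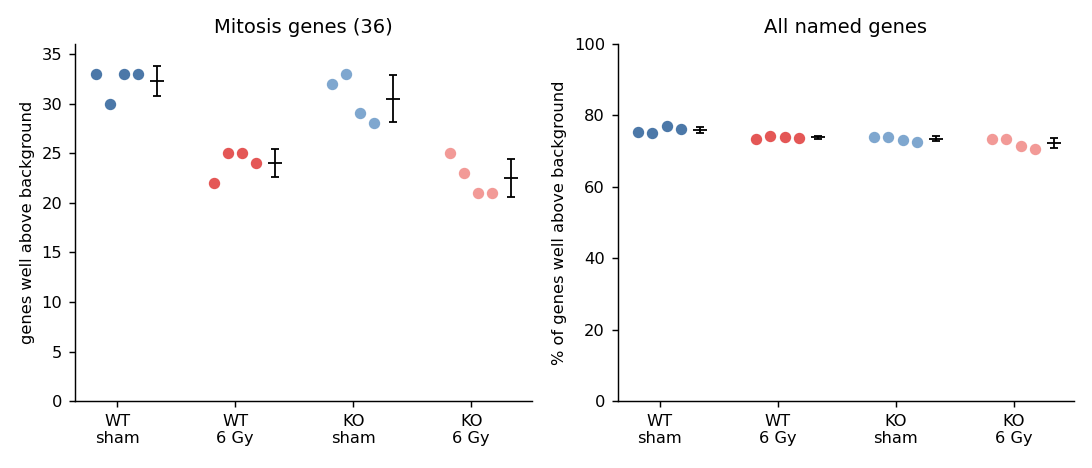
Left, the number of the 36 members well above background on each array; right, the share of all named genes, in percent. Points are arrays and bars are mean ± SD, n = 4. The member counts lie between 28 and 33 in sham and between 21 and 25 after irradiation, while the mean share of all genes lies between 72.2% and 75.9% in every group.

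Without a threshold, whole groups of 4 arrays were compared for overlap. In wild type, 14 members had every irradiated array below every sham array (background 1.09%), and in the labelled knockout 6 did (background 0.834%). Ccnb1, Cenpf, Nusap1 and Pbk were in both counts. Ccna2, Cdk1, Ect2, Kif11, Mki67, Ndc80, Pimreg, Prc1, Top2a and Ube2c were in the wild-type count alone, and Aurkb and Cdca3 in the labelled knockout count alone. Not being in a count does not show that a gene moved differently there.

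The difference in response between the genotypes was tested directly. No member passed in the interaction, nor did any of the 17436 genes (limma); 3 of 33 members had an unadjusted p under 0.05, against 1.27% of all genes. They were Ndc80, with a difference of 1.68 (95% interval 0.40 to 2.95, adjusted p = 0.9999), Cenpf, with -0.91 (-1.67 to -0.14), and Kif11, with 0.90 (0.11 to 1.69). Differences for the others had intervals that included 0 and were wide for dim genes, such as Pbk at 0.76 (-0.18 to 1.69), Top2a at 1.54 (-0.29 to 3.36) and Pimreg at 1.15 (-0.22 to 2.52). A response of the same size in both genotypes is thus not shown.

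Genotype itself called no member in the main fit. In sham mice 0 of 33 passed (limma, background 0.0516%), and 0 of 33 had an unadjusted p under 0.05, against 1340 of 17436 genes. After irradiation 0 passed as well (background 1.18%), with 5 of 33 at an unadjusted p under 0.05 (15.2%), against 2900 of 17436 genes (16.6%). The background correction with an offset of 50 passed 16 members (48.5%), among 3380 genes (19.4% of all tested). With an offset of 1 it passed 5 members (15.2%), among 964 genes (5.53%). Every irradiated labelled knockout array lay above every irradiated wild-type array for Bub1, Cdk1, Ndc80 and Pbk (background 15.3%), and below for Cenpf (background 3.4%). Of these, only Cenpf and Ndc80 had any array above background in the groups compared. The 2 Cenpf probes disagreed here: the main probe gave a change of -0.83 for labelled knockout minus wild type after irradiation, and the dimmer probe gave 1.34 (probe-level limma adjusted p = 0.0278). A second, dimmer Kif23 probe, above background on all 16 arrays, gave 1.04 (probe-level limma adjusted p = 0.0303), and the main Kif23 probe gave 0.16. The slides coincide with the genotypes.

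Beyond the 36, 110 other mitosis genes were listed, and 100 could be tested. In the average of genotypes 1 of 100 rose and 0 fell, against 0.166% (29) and 0.138% (24) of all 17436 genes tested. Over all 110 with no filter the median was -0.04, with 59.1% below 0, against 0.03 and 41.7% over all named genes. The 1 gene that rose was Gtse1, which is bound to the plus ends of microtubules and known to restrain p53. It was above background on 0 of 4 sham and 4 of 4 irradiated wild-type arrays, at least 3.44-fold higher. In the labelled knockout it was above background on 1 of 4 sham and 4 of 4 irradiated arrays. There it read -7.53 ± 0.97 in sham and -5.24 ± 0.11 after irradiation (SD, n = 4). The average change was 2.27 ± 0.29 (SE, limma adjusted p = 0.00154). Gtse1 entered the test only with its irradiated arrays, the groups where it was high. Among the members 9 of 33 passed, and the 2 lists were not set against each other by a test.

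Markers of the cell types that could carry these genes were read on the same arrays. For oligodendrocyte precursors, the main cycling cells, 19 of 20 markers were below 0 in the average, 2 fell, and the median was -0.16. Their summed level ran from 44.13 to 50.57 over the sham and 42.69 to 44.45 over the irradiated wild-type arrays, and from 46.29 to 49.41 and from 38.29 to 45.75 in the labelled knockout. None of the 20 was below background on all 16 arrays. For microglia, 15 of 18 were below 0, 2 fell and the median was -0.20, while for neural progenitors 10 of 18 were below 0 and 0 fell. Of 12 lymphocyte markers with a probe, 6 were below 0 and 6 above, and 2 of the 7 tested were called lower. Red cell, endothelial and cortical neuron markers had none called, with 3 of 9, 7 of 12 and 4 of 11 below 0. Over all genes, 0.138% of those tested were called lower and 41.7% of those named were below 0. The part of these shifts in the mitosis genes was not tested.

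The members' promoters can be read for the letters of 2 known cell-cycle elements. TTTGAA, the usual letters of the cell-cycle homology region, which the DREAM complex binds, and CCAAT, the box bound by the factor NF-Y, were searched on both strands in the RefSeq windows of GRCm38.p6, 250 bases before to 50 after the start. The table holds 29 of the 36 members, without Aurkb, Ccna2, Esco2, Kif20a, Pbk, Pimreg and Tpx2. TTTGAA was found in 21 of 29 (72.41%), against 20.23% of all genes in the table and 52.27% of the other mitosis genes, and CCAAT in 24 of 29 (82.76%), against 41.06% and 62.5%. Both were found in 20 of 29 (68.97%), against 8.97% of all genes. A related form, TTTAAA, was found in 7 of 29 (24.14%), against 14.88%. On the gene strand alone, TTTGAA was found in 17 of 29 (58.62%), against 11.58%. A match describes letters only and does not show a site.

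Of 26 TTTGAA matches in the members' first windows, 20 lay within 50 bases of the start. Of 61 CCAAT matches, 41 lay within 100 bases upstream of it. Positions were counted for the members alone, so no share over all genes stands beside them. The 6 windows shown are those with the smallest p in the average contrast among members that hold TTTGAA; capitals mark both motifs on either strand. Spc25, which rose, and Cenpf, which fell, hold the letters of both elements in the same order, with CCAAT upstream and TTTGAA just after the start.
Cenpf (chr1:189688037-189688336, - strand): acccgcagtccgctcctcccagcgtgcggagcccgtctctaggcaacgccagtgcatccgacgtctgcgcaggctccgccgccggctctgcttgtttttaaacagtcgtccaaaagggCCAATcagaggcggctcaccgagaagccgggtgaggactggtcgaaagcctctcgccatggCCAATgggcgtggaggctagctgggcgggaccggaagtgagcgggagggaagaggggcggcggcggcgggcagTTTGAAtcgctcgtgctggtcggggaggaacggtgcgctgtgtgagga
Spc25 (chr2:69206164-69206463, - strand): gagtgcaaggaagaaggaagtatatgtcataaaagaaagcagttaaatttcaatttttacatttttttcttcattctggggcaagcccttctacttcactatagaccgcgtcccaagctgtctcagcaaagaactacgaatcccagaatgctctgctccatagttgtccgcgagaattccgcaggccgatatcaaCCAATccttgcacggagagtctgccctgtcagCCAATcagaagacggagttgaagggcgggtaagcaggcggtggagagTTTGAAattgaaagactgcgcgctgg
Prc1 (chr7:80294201-80294500, + strand): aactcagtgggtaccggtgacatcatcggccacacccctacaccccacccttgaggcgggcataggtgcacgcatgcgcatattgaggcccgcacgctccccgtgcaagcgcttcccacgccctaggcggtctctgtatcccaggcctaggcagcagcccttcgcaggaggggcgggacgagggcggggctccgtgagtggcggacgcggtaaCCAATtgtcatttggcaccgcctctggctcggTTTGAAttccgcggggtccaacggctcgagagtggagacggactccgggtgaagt
Cdca3 (chr6:124829926-124830225, + strand): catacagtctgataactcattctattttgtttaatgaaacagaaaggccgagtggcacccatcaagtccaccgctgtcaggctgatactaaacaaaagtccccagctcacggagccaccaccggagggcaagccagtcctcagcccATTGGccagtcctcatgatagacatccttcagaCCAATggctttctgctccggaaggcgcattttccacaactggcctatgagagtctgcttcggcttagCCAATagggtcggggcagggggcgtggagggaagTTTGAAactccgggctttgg
Ube2c (chr2:164769679-164769978, + strand): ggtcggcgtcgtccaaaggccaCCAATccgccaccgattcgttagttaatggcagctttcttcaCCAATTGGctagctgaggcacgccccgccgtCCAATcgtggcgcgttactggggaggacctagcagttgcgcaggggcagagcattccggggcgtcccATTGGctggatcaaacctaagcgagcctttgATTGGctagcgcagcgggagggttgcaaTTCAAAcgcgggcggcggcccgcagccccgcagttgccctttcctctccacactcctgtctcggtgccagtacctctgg
Top2a (chr11:99024140-99024439, - strand): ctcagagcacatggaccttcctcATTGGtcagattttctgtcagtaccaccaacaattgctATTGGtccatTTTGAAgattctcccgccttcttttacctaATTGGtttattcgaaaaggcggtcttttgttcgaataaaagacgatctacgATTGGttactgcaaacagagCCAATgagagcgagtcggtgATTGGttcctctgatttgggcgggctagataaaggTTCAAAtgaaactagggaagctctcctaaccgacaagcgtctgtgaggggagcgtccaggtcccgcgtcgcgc

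Each of the 6 windows holds at least 1 CCAAT upstream of the TTTGAA nearest its start. In Cenpf the matches begin at -71 and 2 relative to the start, in Spc25 at -23 and 24, in Prc1 at -37 and -5, in Cdca3 at -4 and 30, in Ube2c at -57 and -29 and in Top2a at -58 and -23. The windows of Ccnb1 and Nusap1 held no TTTGAA; that of Ccnb1 held 1 TTTAAA and 2 CCAAT, and that of Nusap1 none of the 3 motifs.

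**Figure D4:**
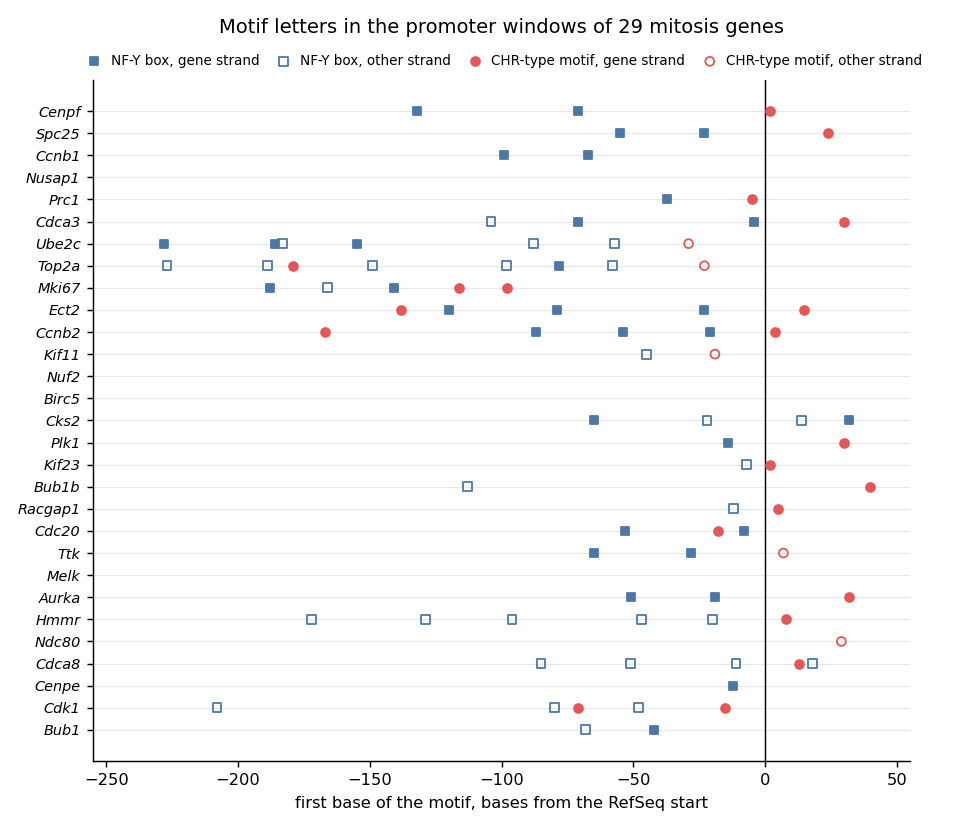
Position of TTTGAA (red circles, CHR-type motif) and CCAAT (blue squares, NF-Y box) in the promoter windows of 29 members, as the first base of the match relative to the RefSeq start; filled marks are on the gene strand and open marks on the other strand. Red marks gather near 0, with 20 of 26 within 50 bases, and blue marks lie mostly upstream.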

How the data were processed

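Cy3-labelled cRNA from cortex was read on 16 Agilent arrays of 1 colour, 1 mouse each per the labels' design text. The deposited intensity values are processed signals of Feature Extraction 12.0.3.1, per the file headers. The authors' deposited series table, an alternative, holds a score per probe and array; each column has a median of -0.08 and an SD of 1 and follows the scanner values of its array (lowest r 0.9997), so its direction is known and its exact scaling and centring are not.

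Flagged spots were left out, spots of a probe averaged, log2 taken and the 75th percentile of each array subtracted. Probes above background on at least 4 of 16 arrays were kept; the brightest stood for a gene. limma 3.58.1 (R 4.3.3), tested on simulated data, fitted 1 mean per group over all arrays, with Benjamini-Hochberg adjustment over 17436 genes, called at 0.05. Counts of directions used a fit with no filter. The normexp alternative used median signals in place of mean signals. Members called in an irradiation contrast are given on every array; outside the members, only called mitosis genes and the targeted gene are named; promoters are the 6 with the smallest p that hold TTTGAA, none on chromosome 18. The members and lists were chosen with earlier results of these data known. The number of arrays limits the precision.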

Additional observations from a re-analysis of the deposited data

Results flagged for a closer look

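In each of the 144 groups of 4 arrays, 1 for each member and group, the array farthest from the others was compared with the group's range by Dixon's ratio. It passed the 95% critical value in 12 groups, and chance alone flags about 1 in 20. All values are levels relative to the 75th percentile. In irradiated wild type, replicate 4 stood apart for Ccnb1 at -8.59 and for Cdca3 at -4.36, and replicate 3 for Kif23 at -5.71. In sham wild type, replicate 4 stood apart for Prc1 at -3.50. In sham labelled knockout, replicate 4 stood apart for Aurka at -2.10, Ttk at -6.97 and Kif11 at -7.08. In irradiated labelled knockout, replicate 4 stood apart for Cdca3 at -4.47 and Cenpf at -8.00, replicate 3 for Cks2 at -2.96 and Bub1b at -8.27, and replicate 1 for Birc5 at -2.59. Replicate 4 accounts for 8 of the 12 flags. The Ccnb1 and Cenpf arrays lay farther from sham than the rest of their groups, while both Cdca3 arrays lay nearer to it.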

How the results depend on the processing

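The 2 arrays left out as dimmest and the offset of 1 were chosen after seeing the data. In the main fit 13, 21 and 53 of 17436 genes were called in wild type, the labelled knockout and the average. With normexp and an offset of 50, called members numbered 0, 0 and 1 in the same order, among 11, 20 and 40 genes. In the labelled knockout 16 of 36 members were then below 0, a share not counted over all genes. For genotype after irradiation 16 members were called (48.5%), among 3380 genes (19.4%). With an offset of 1 the counts were 0, 0, 3 and 5, among 12, 17, 42 and 964 genes. The last of these were 15.2% of members, against 5.53% of all tested genes. Quantile normalization gave 5 in the average, among 38 genes. The deposited scores gave 0 in wild type and 5 in the average, among 11 and 36 of 17219 genes. Array weights gave 4 in wild type, among 24 genes, and the fit of 2 groups alone 0 in the labelled knockout, among 6. Probes tested separately gave 2 for genotype after irradiation, without a share over all probes beside it. Without the 2 dimmest arrays the counts were 2, 1 and 4, among 14, 7 and 39 genes. Leaving out each array in turn gave 1 to 2, 2 to 3 and 5 to 8, among 10 to 16, 11 to 22 and 38 to 47 genes. Detection by the scanner's weaker flag gave 35.5, 32.75, 34.75 and 31.5 members in the 4 groups. The share of all genes by that flag was not counted. Median centring moved the median of all genes in wild type to 0.117. Over all genes, 45.3% of the 53 called in the average were lower, against 17.5% of 40 under normexp, 34.2% of 38 under quantile normalization, 26.9% of 26 under median centring and 30.6% of 36 in the deposited scores.

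Replicate numbers also mark the slide column. Arrays of the same number correlated from -0.599 to 0.525 in their deviations, with 7 of 24 closest to their own number, so they were not treated as pairs. Between sham and irradiated labelled knockout arrays the correlations were 0.525, 0.053, 0.268 and 0.373. With the replicate number as a block, the labelled knockout count was 1 and the average 7, among 13 and 49 genes called. In the average Pimreg, Prc1 and Ube2c were lost and Ccna2 was gained (limma adjusted p = 0.0307).

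Among members that were not called, the average changed sign under normexp for Ttk (0.12), Cdca8 (0.020), Ndc80 (0.14), Kif11 (0.069), Kif20a (0.091) and Kif23 (0.11), and with an offset of 1 for Cdca8 (0.0001), Ndc80 (0.015) and Kif23 (0.036). It did so for Cdca8 with all probes averaged (0.058), for Cenpe with median centring (0.0019), for Hmmr with array weights (0.025), and without the 2 dimmest arrays for Melk (0.011), Cenpe (0.076), Hmmr (0.018) and Racgap1 (-0.0027). Leaving out 1 array, the range was -0.096 to 0.011 for Cdca8, -0.27 to 0.019 for Ndc80, -0.10 to 0.046 for Cenpe and -0.16 to 0.041 for Hmmr. The cause of these changes was not tested. No called member changed sign under any alternative run. For dim members the signal over background limits the size that can be given, and a gene below background has only a bound.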
